A study of Homo sapiens with 12 samples.

Results

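Box C/D small nucleolar RNAs (snoRNAs), whose gene symbols start with SNORD, were compared between HCT116oxR cells and parental HCT116 cells. HCT116 is an established human colorectal carcinoma line. HCT116oxR was derived from it by stepwise exposure to oxaliplatin, a platinum drug that damages DNA, starting at 0.1 µmol/L and ending with 1 year at 5 µmol/L. The parental line carries the phenotype label of a control, and no drug exposure is given for it. The snoRNA genes were selected on their summed raw counts in total RNA: an entry was kept when its counts over the 6 total RNA libraries came to 60 or more. Of 302 SNORD entries among the 54261 genes of the count table, 153 met this limit, with 61 to 3275 counts in all (median 293). The remaining 149 entries comprised 128 with 0 counts and 21 with 1 to 59. SNORD126, with 61 counts, and SNORD124, with 64, lay just inside the limit, and SNORD105, with 56, and SNORD105B, with 52, lay just outside it. These levels describe the choice of genes, whereas the difference between the lines was not used to make it.

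A box C/D snoRNA is a short nuclear RNA that folds so that its conserved boxes C and D are bound by the proteins SNU13, NOP56, NOP58 and fibrillarin. The RNA pairs with a target, usually ribosomal RNA (rRNA), and fibrillarin, a methyltransferase, then methylates a ribose of the paired stretch. A few box C/D snoRNAs guide cleavage of the rRNA precursor instead. Most human snoRNA genes lie in introns of other genes, called host genes, and the snoRNA is cut out of the spliced intron, so that 1 host transcript can yield both a spliced RNA and a snoRNA. Protein-coding hosts often encode ribosomal or nucleolar proteins, and some hosts, such as GAS5 and the small nucleolar RNA host genes (SNHG), encode no known protein.

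Each line was represented by 3 total RNA libraries from cultures that were grown and harvested independently according to the study's design text. HCT116oxR is a single resistant line, so the tests measured the spread between cultures of 2 lines and not between separately derived resistant lines. Total counts were 11950069 to 13558077 per library. Summed markers of intestinal epithelium reached 3058 to 3169 CPM (counts scaled to a common library total) in parental libraries and 3698 to 3780 CPM in HCT116oxR libraries. Leukocyte markers summed to 9.62 to 13.1 and 5.06 to 6.27 CPM, with 2 of 5 markers, PTPRC and CD3E, at 0 counts. Fibroblast markers summed to 54.8 to 67.5 and 46.4 to 51.7 CPM, and endothelial markers to 1.65 to 2.42 and 3.02 to 3.98 CPM. Their part in the snoRNA results was not tested. Counts of snoRNA genes may include reads from unspliced host RNA, since no source used here gives the counting rules. In bulk RNA of this kind, a change in every cell and a change in the share of cells that hold the RNA cannot be told apart.

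Box C/D snoRNAs took a larger share of the counts in every HCT116oxR library than in any parental library. The 153 genes held 0.0794%, 0.0823% and 0.0793% of the counts in parental libraries 1 to 3, or 10592, 9831 and 9838 counts. In HCT116oxR libraries 1 to 3 the share was 0.108%, 0.102% and 0.108%, or 14663, 13701 and 13273 counts. The mean share was therefore 0.0803% ± 0.00169 (SD, n = 3) in parental cells and 0.106% ± 0.00343 (SD, n = 3) in HCT116oxR cells, a ratio of 1.32. Without SNORD58B, the gene with the most counts, the ratio was 1.33. The other large snoRNA class, the H/ACA snoRNAs together with the Cajal body RNAs, went from 0.0941% ± 0.00340 to 0.111% ± 0.00171 (SD, n = 3 each), a ratio of 1.18. The difference between the ratios of the 2 classes was not tested.

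The change was spread over many genes and was mostly in 1 direction. Of 152 snoRNA genes that had enough counts for a test, 54 (35.5%) were higher in HCT116oxR cells at an adjusted p under 0.05, against 22.3% of all 17511 genes tested. Only SNORD17 and SNORD3B-2 were lower, which is 1.32% of the snoRNA genes against 21.8% of all genes, and 96 did not pass the test. The p-values came from edgeR's quasi-likelihood test with Benjamini-Hochberg adjustment over all genes tested. SNORD126 had too few counts per library to be tested (7, 9 and 3 in parental and 8, 20 and 14 in HCT116oxR libraries). The estimate was above 0 for 128 of the 152 genes and below 0 for 24. The median log2 fold change was 0.39 for the snoRNA genes and -0.00 for all genes tested, and the snoRNA values ran from -0.85 to 1.58.

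The size of the change was moderate for most genes. Among the 54 genes called higher, the fold ran from 1.16 to 3.00 with a median of 1.64, and 8 genes were at least 2-fold higher. No gene called lower reached 2-fold. Every HCT116oxR library lay above every parental library, in TMM-scaled CPM, for 66 of the 152 genes, against 25.7% of all genes tested. Every HCT116oxR library lay below every parental library for 6 genes, SNORD121A, SNORD13P2, SNORD17, SNORD93, SNORD62A and SNORD144, against 24.8% of all genes. Of these 6 only SNORD17 passed the test. SNORD4A, SNORD14B, SNORD110 and SNORD12C were called higher although their libraries overlapped between the lines.

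**Figure D1:**
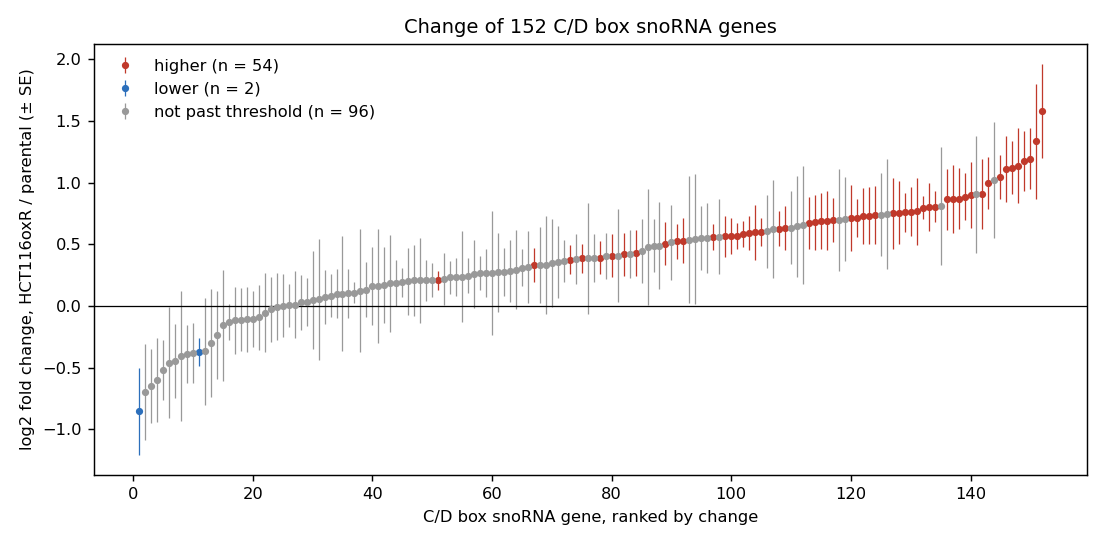
Log2 fold change (HCT116oxR over parental, vertical axis) of the 152 tested C/D box snoRNA genes in rank order (horizontal axis), with bars for the SE. Red points are the 54 genes called higher, blue points the 2 called lower and grey points the 96 that did not pass the test, and 128 of the points lie above 0.

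Calls were more frequent among genes with more counts. Among the 44 genes with 500 or more counts in all, 28 were higher and 1 was lower. From 200 to under 500 counts, 24 of 65 were higher, and from 60 to under 200 counts 2 of 43 were higher and 1 was lower. The median log2 fold changes of these 3 classes were 0.42, 0.42 and 0.29. Across the 152 genes, which share the same 6 libraries, Spearman's rho between summed counts and log2 fold change was 0.10. Genes called higher had a median of 510.5 counts, and those that did not pass the test a median of 215. A gene that missed the threshold with few counts is therefore not shown to be unchanged. Of 131 genes at or above the low-count limit in all 6 libraries, 52 were higher and 2 were lower, with a median of 0.38 and a highest value of 1.19. The other 21 tested genes were under that limit in at least 1 library, and the 2 of them called higher, SNORD8 and SNORD99, passed the filter only through the HCT116oxR libraries. The genes were 48 to 237 nucleotides long (median 79), and log2 fold change and length had a Pearson's r of -0.25 and a Spearman's rho of -0.09.

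The snoRNAs listed under processing of the rRNA precursor did not move as 1 group. The list held U3 (SNORD3 genes), U8 (SNORD118), U13 (SNORD13), U14 (SNORD14 genes) and U22 (SNORD22). Of 13 entries, 11 had enough counts to be described. SNORD3B-1 with 39 counts in all and SNORD13 with 28 did not. Among the 11, 5 were higher, 1 was lower and 5 did not pass the test, with a median log2 fold change of 0.36.

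U3, which is needed for the early cleavages that release the small subunit rRNA, did not differ beyond the spread between libraries when its copies were added up. The 5 SNORD3 entries summed to 207, 209 and 187 counts in parental libraries and to 212, 238 and 174 counts in HCT116oxR libraries. In CPM these sums were 16.0 ± 1.29 and 15.9 ± 1.80 (SD, n = 3 each), a ratio of 0.990, and the libraries of the lines overlapped. Single copies differed from each other. SNORD3B-2 had 36, 38 and 26 counts in parental and 17, 29 and 12 in HCT116oxR libraries, a log2 fold change of -0.85 ± 0.35 (SE, adjusted p = 0.0409), with 1 HCT116oxR library within the parental range. SNORD3A, the copy with the most counts, had 92, 93 and 111 against 124, 128 and 107 counts (0.21 ± 0.17, adjusted p = 0.322). SNORD3D was at -0.11 ± 0.25 and SNORD3C at 0.10 ± 0.46, and neither passed the test. These copies are nearly identical in sequence, so reads could have been divided between them in a way that the counts do not show. The call for SNORD3B-2 was lost on leaving out HCT116oxR library 1 (-0.75), HCT116oxR library 3 (-0.64), parental library 1 (-0.84) or parental library 2 (-0.71), and also with DESeq2 (-0.86, adjusted p = 0.0774) and without the low-count filter (-0.86, adjusted p = 0.0568).

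U14, which pairs with small subunit rRNA and is needed for its release, was higher in HCT116oxR cells. Its 5 copies together had 271, 252 and 237 counts in parental and 498, 469 and 425 counts in HCT116oxR libraries. All 3 HCT116oxR libraries were well above the 3 parental ones. In CPM the sums were 20.2 ± 1.00 and 35.5 ± 1.11 (SD, n = 3 each), a ratio of 1.76. The increase was carried mainly by the 3 copies within HSPA8, on chromosome 11, which encodes the constitutive HSP70 chaperone HSC70. SNORD14C (chr11:123059335-123059422, GRCh38) rose from 52, 62 and 73 counts to 149, 147 and 111 counts, a log2 fold change of 1.05 ± 0.18 (SE, adjusted p = 3.58e-07). SNORD14D (chr11:123058909-123058995) went from 50, 24 and 22 to 83, 75 and 71 counts (1.19 ± 0.25, adjusted p = 2.18e-05). SNORD14E (chr11:123058077-123058156) went from 52, 43 and 39 to 122, 81 and 78 counts (1.00 ± 0.21, adjusted p = 3.89e-05). For each of these 3 genes the lowest HCT116oxR library lay above the highest parental one. The 2 copies within RPS13, a ribosomal protein gene, had smaller estimates. SNORD14B had 87, 94 and 72 against 104, 123 and 127 counts (0.42 ± 0.17, adjusted p = 0.0408), and SNORD14A had 30, 29 and 31 against 40, 43 and 38 counts (0.36 ± 0.29, adjusted p = 0.336). The call for SNORD14B was lost on leaving out HCT116oxR library 2 (0.41), HCT116oxR library 3 (0.32), parental library 1 (0.40) or parental library 3 (0.32), with DESeq2 (0.42, adjusted p = 0.0905) and without the low-count filter (0.42, adjusted p = 0.0693). Reads of the U14 copies may also be shared between them.

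U22 (SNORD22), another RNA needed for small subunit rRNA, was higher, with 148, 147 and 108 counts in parental and 226, 193 and 188 in HCT116oxR libraries (log2 fold change 0.52 ± 0.14, adjusted p = 0.000885). U8 (SNORD118), which acts in large subunit rRNA maturation, had 26, 18 and 15 counts against 16, 35 and 13 (0.05 ± 0.40, adjusted p = 0.934). Its libraries varied more within HCT116oxR cells than between the lines, and without HCT116oxR library 2 the estimate was -0.48. TMEM107, the gene whose span holds SNORD118, was lower (-0.71 ± 0.23, adjusted p = 0.00794), a call that was lost without HCT116oxR library 1 (-0.52).

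Of 5 measured box C/D snoRNAs known to guide methylation of the spliceosomal U6 RNA, 1 (20%) was higher, against 22.3% of all genes tested. This was SNORD8 (chr14:21397293-21397401), within CHD8, a chromatin remodeller. It had 10, 8 and 7 counts in parental and 19, 36 and 12 in HCT116oxR libraries, a log2 fold change of 1.34 ± 0.47 (SE, adjusted p = 0.0137). All 3 parental libraries were under the low-count level of 0.777 CPM that a gene had to reach in 3 libraries, so SNORD8 entered the test only through the HCT116oxR libraries, where it was high. HCT116oxR library 2 was the highest, and without it the estimate was 0.83 (adjusted p = 0.269). Without parental library 3 it was 1.23 (adjusted p = 0.0513). SNORD9, also within CHD8, was at 0.65 ± 0.41, SNORD67 at 0.52 ± 0.30, SNORD10 at 0.28 ± 0.20 and SNORD94 at -0.05 ± 0.32, and none of these 4 passed the test.

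Among the rRNA methylation guides called higher, SNORD99 (chr1:28578743-28578822), which lies within SNHG12, had the largest estimate, from few counts. In parental cells 1 library was under the low-count level of 0.777 CPM and SNORD99 entered the test only through its HCT116oxR libraries, so its rank is no more than a description. Its counts were 19, 7 and 10 in parental and 48, 30 and 35 in HCT116oxR libraries. The HCT116oxR libraries were all above the parental ones, at 2.88 ± 0.651 against 0.944 ± 0.438 TMM-scaled CPM (SD, n = 3 each). The log2 fold change was 1.58 ± 0.38 (SE, adjusted p = 0.000290), or 3.00-fold. SNORD1C, within SNHG16, had 31, 39 and 27 against 77, 72 and 81 counts (1.18 ± 0.24, adjusted p = 1.92e-05). SNORD59A, within the ATP synthase gene ATP5F1B (named ATP5B in the count table), had 21, 28 and 15 against 44, 52 and 52 counts (1.14 ± 0.30, adjusted p = 0.000975). SNORD12, within ZFAS1, had 42, 34 and 51 against 112, 87 and 91 counts (1.12 ± 0.21, adjusted p = 3.64e-06). SNORD21, within the ribosomal protein gene RPL5, had 30, 23 and 29 against 74, 63 and 49 counts (1.11 ± 0.27, adjusted p = 0.000263). In all of these genes the lines did not overlap. Smaller estimates were seen for SNORD51 within EEF1B2 (0.91 ± 0.29), SNORD15B within RPS3 (0.90 ± 0.27) and SNORD78 within GAS5 (0.89 ± 0.19), all higher. SNORD51 lost its call without HCT116oxR library 2 (0.74), and SNORD15B without HCT116oxR library 1 (0.60).

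**Figure D2:**
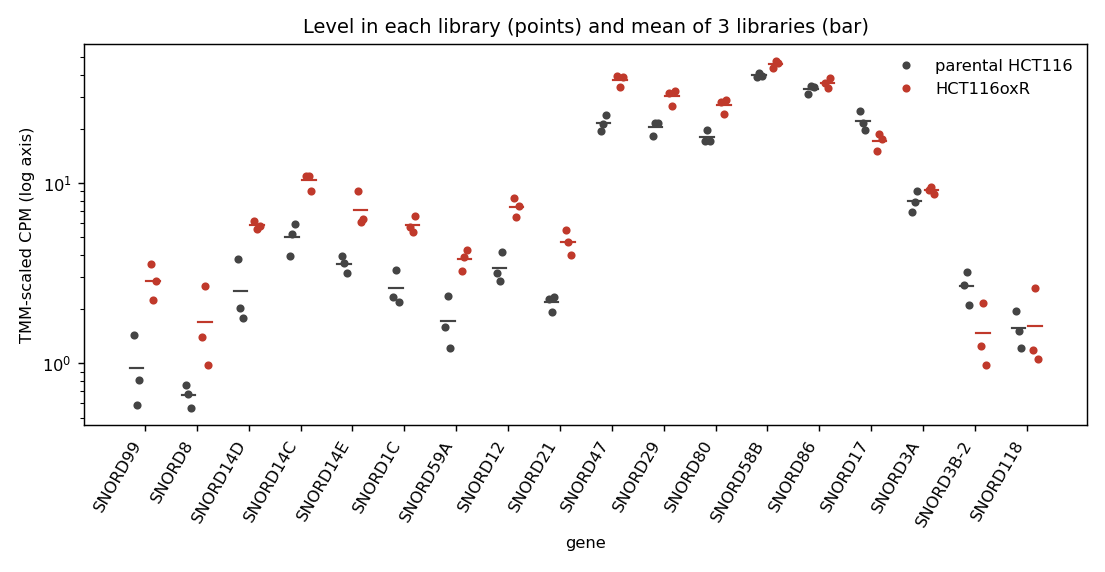
TMM-scaled CPM (log axis) of 18 C/D box snoRNA genes (horizontal axis) in the 3 parental libraries (dark points) and the 3 HCT116oxR libraries (red points), with a bar for each mean. SNORD14C, SNORD14D and SNORD14E are separate between the lines, SNORD58B and SNORD86 differ little, and SNORD118 overlaps.

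The 5 snoRNA genes with the most counts differed in the size of their change, and SNORD17 is given with them. SNORD58B, within the ribosomal protein gene RPL17, had 514, 484 and 483 counts in parental and 591, 635 and 568 in HCT116oxR libraries (log2 fold change 0.21 ± 0.08, adjusted p = 0.0188). That call was lost without HCT116oxR library 2 (0.18), HCT116oxR library 3 (0.20) or parental library 1 (0.20). SNORD86, within the box C/D core protein gene NOP56, had 413, 413 and 424 against 488, 452 and 472 counts (0.11 ± 0.09, adjusted p = 0.315). SNORD47, a large subunit guide within GAS5, rose from 258, 252 and 296 to 535, 458 and 475 counts (0.80 ± 0.10, adjusted p = 1.40e-12), the smallest adjusted p among the named snoRNA genes. SNORD29 within SNHG1 had 243, 257 and 265 against 429, 360 and 399 counts (0.57 ± 0.10, adjusted p = 1.05e-06). SNORD80 within GAS5 had 228, 233 and 211 against 380, 323 and 353 counts (0.59 ± 0.11, adjusted p = 1.72e-06). SNORD17, a long box C/D snoRNA within SNX5, went the other way, from 332, 255 and 242 to 203, 250 and 216 counts. In TMM-scaled CPM all 3 HCT116oxR libraries were below the parental ones (-0.37 ± 0.12, adjusted p = 0.00530), and the call was lost without HCT116oxR library 1 (-0.28) or parental library 1 (-0.27).

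The genes were then grouped by the kind of host whose span holds them. The grouping was made after the values had been seen and is a description. Of 36 snoRNA genes in the non-coding hosts GAS5, ZFAS1 and SNHG, 24 were higher and none was lower (median log2 fold change 0.60). THAP9-AS1, an antisense transcript, and C19orf48P were not put in this class but among the other genes. None of their 2 and 3 snoRNA genes was called, with medians of -0.24 and -0.09. In ribosomal protein genes 14 of 40 were higher (median 0.35), and in genes of translation factors or ribosome-bound proteins 3 of 7 were (median 0.55). In genes of nucleolar or ribosome biogenesis proteins 4 of 20 were higher (median 0.28). In other genes 8 of 43 were higher and 1, SNORD17, was lower (median 0.27). Of 6 genes with no spanning gene in the reference table, 1 was higher and 1, SNORD3B-2, was lower (median 0.16). The share called higher in all genes tested was 22.3%, so the classes of nucleolar hosts, other hosts and no host lay under that background.

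Within a host, the snoRNAs often moved together, although they share their precursor RNA and are not independent. SNHG1 held 8 of the genes, and 7 were higher: SNORD22, SNORD25, SNORD26, SNORD27, SNORD28, SNORD29 and SNORD31. The exception, SNORD30, was at 0.42 ± 0.19 (adjusted p = 0.0665). Their counts summed to 1320, 1259 and 1253 in parental and to 2151, 1865 and 2033 in HCT116oxR libraries, a CPM ratio of 1.52. SNORD31, a large subunit guide, was at 0.81 ± 0.13, whereas SNORD25, SNORD26, SNORD27, SNORD28 and SNORD29 ran only from 0.56 to 0.60. GAS5 held 10 genes, of which 5 were higher. Their counts summed to 1285, 1273 and 1268 in parental and 2142, 1818 and 1847 in HCT116oxR libraries (ratio 1.46). Estimates in GAS5 ran from 0.19 to 0.89. SNORD44, at its low end, had 111, 112 and 111 against 139, 142 and 131 counts (0.24 ± 0.15, adjusted p = 0.220).

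In 4 hosts, each with 3 or more snoRNA genes, all were called higher. RPL13A, a large subunit ribosomal protein gene, holds SNORD32A (0.68 ± 0.22), SNORD33 (0.43 ± 0.19), SNORD34 (0.87 ± 0.25) and SNORD35A (0.77 ± 0.20). SNORD33 passed the threshold narrowly (adjusted p = 0.0497). Together they had 226, 203 and 203 counts in parental and 365, 363 and 319 in HCT116oxR libraries (ratio 1.59). SNHG16 holds SNORD1A, SNORD1B and SNORD1C, with 100, 104 and 64 against 172, 173 and 199 counts (ratio 1.96). ZFAS1 holds SNORD12, SNORD12B and SNORD12C, with 222, 133 and 214 against 389, 294 and 358 counts (ratio 1.77). HSPA8 holds the 3 U14 copies given above, with 154, 129 and 134 against 354, 303 and 260 counts (ratio 2.11). At the other end, none of 4 genes in RPL7A, 4 in GNL3, 3 in NOP58 or 3 in C19orf48P was called. Their medians were 0.20, 0.34, 0.35 and -0.09.

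**Figure D3:**
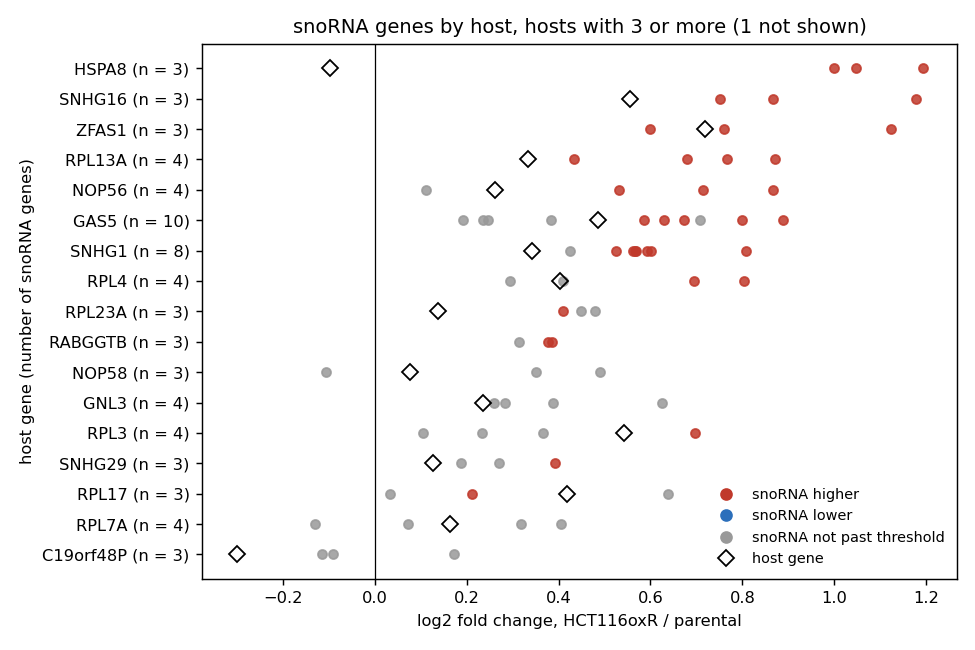
Log2 fold change (HCT116oxR over parental, horizontal axis) of each tested snoRNA gene, by host (vertical axis), for the hosts reported here with 3 or more such genes, with an open diamond for the host gene itself, which RABGGTB lacks because it was not tested. All snoRNAs of HSPA8, SNHG16, ZFAS1 and RPL13A are red (called higher), and the diamond of HSPA8 lies below 0.

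Host genes rose more often than genes in general, but host and snoRNA did not move in equal steps. A host in the count table was found for 146 of the 153 snoRNA genes, in 73 host genes, of which 72 were tested in the same fit. Of these 38 (52.8%) were higher against 22.3% of all genes tested, 14 (19.4%) were lower against 21.8%, and the median log2 fold change was 0.13. Ribosomal protein hosts were higher in 14 of 17 cases and lower in 1 (median 0.33). The non-coding hosts GAS5, ZFAS1 and SNHG were higher in 8 of 11 cases (median 0.39). Other hosts were higher in 7 of 30 cases and lower in 11 (median -0.07). The latter include THAP9-AS1 (-0.26 ± 0.06) and C19orf48P (-0.30 ± 0.05). Across the 142 snoRNA genes with a tested host, which share libraries and often hosts, Pearson's r between snoRNA and host log2 fold change was 0.35 and Spearman's rho 0.31. The snoRNA estimate exceeded that of its host in 99 of the 142 cases, with a median difference of 0.21. These figures include snoRNA genes that passed the low-count filter only through the HCT116oxR libraries, such as SNORD8 and SNORD111B, and are a description. Hosts that hold many of the 142 genes, such as GAS5 with 10 and SNHG1 with 8, were themselves higher. The share of all 142 with a higher host was not counted, so the next count has no background beside it. Of 51 higher snoRNA genes with a tested host, 41 had a host that was higher, 7 a host that did not pass the test and 3 a host that was lower.

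All 3 of the latter were the U14 copies in HSPA8. The HSPA8 gene had 7286, 6225 and 6712 counts in parental and 6758, 6805 and 6195 in HCT116oxR libraries, at 539 ± 13.7 and 504 ± 4.74 TMM-scaled CPM (SD, n = 3 each). Its log2 fold change was -0.10 ± 0.03 (SE, adjusted p = 0.00656), a small decrease that no longer passed without parental library 1 (-0.08), while its snoRNAs were about 2-fold higher. SNHG12, the host of SNORD99, had 101, 80 and 74 against 93, 95 and 80 counts (0.01 ± 0.19, adjusted p = 0.980). CHD8, the host of SNORD8, was at -0.10 ± 0.09 (adjusted p = 0.400). The difference between each snoRNA and its host was not tested. Over the 142 snoRNA genes with a tested host, snoRNA and host estimates had the same sign in 113 cases and opposite signs in 29. Of these 29, the snoRNA estimate was above 0 in 22 and below 0 in 7. Genes that passed the low-count filter only through the HCT116oxR libraries are included here too. In 4 non-coding hosts with several higher snoRNAs the host was higher too: ZFAS1 went from 188, 163 and 169 to 286, 301 and 307 counts (0.72 ± 0.12), SNHG16 was at 0.56 ± 0.08, GAS5 at 0.49 ± 0.07 and SNHG1 at 0.34 ± 0.05. Opposite signs were seen for SNORD56B (-0.46 ± 0.45) within SIPA1L1 (0.70 ± 0.17), SNORD23 (-0.38 ± 0.24) within NOP53 (0.30), and SNORD53 (0.21 ± 0.34) and SNORD92 (0.13 ± 0.50) within WDR43 (-0.27 ± 0.08), and none of these 4 snoRNAs passed the test. RABGGTB, which spans SNORD45A, SNORD45B and SNORD45C, had only 3, 3 and 7 counts in parental and 2, 16 and 4 in HCT116oxR libraries. Its snoRNAs summed to 559, 468 and 523 and to 791, 680 and 622 counts, and SNORD45A (0.39 ± 0.12) and SNORD45C (0.38 ± 0.12) were higher.

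**Figure D4:**
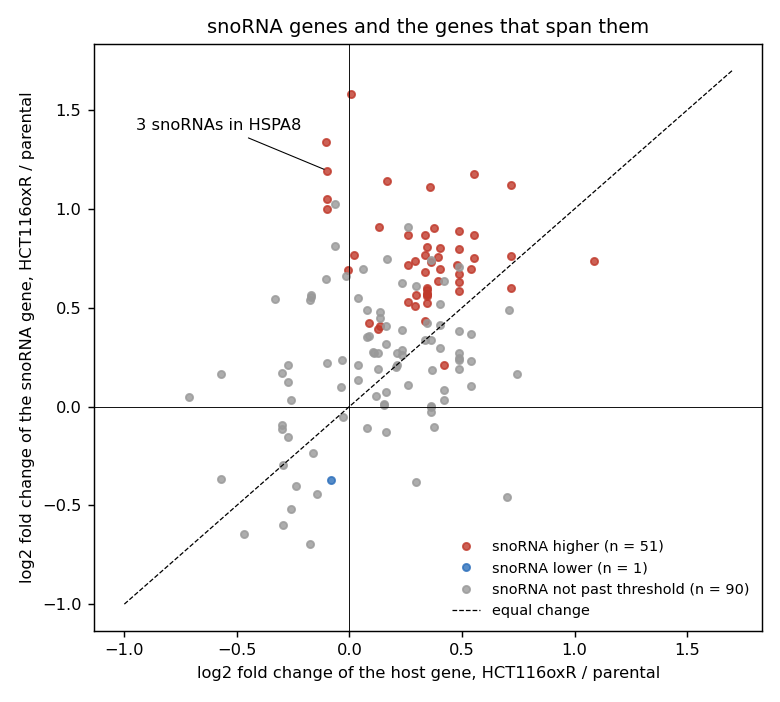
Log2 fold change of each snoRNA gene (vertical axis) against that of its host gene (horizontal axis), HCT116oxR over parental, for the 142 snoRNA genes with a tested host. Red points are snoRNA genes called higher, the dashed line marks equal change, and 99 points lie above it, among them the 3 snoRNA genes in HSPA8.

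Many snoRNA hosts are known to start transcription at a C followed by a run of pyrimidines (C or T), the terminal oligopyrimidine start of mRNAs whose translation depends on growth signals. Transcript starts were therefore read for the hosts. The RefSeq promoter table (GRCh38.p14) held an entry for 57 of the 73 hosts. The sequences below show 8 hosts with at least 1 snoRNA gene called higher, among them SNHG32 and RPS12 with 2 of 2 each, and for contrast RPL7A, with none called, and SNX5, with SNORD17 lower. Each gives 30 bases before and 20 from the annotated start, 5′ to 3′ on the strand of the gene. Capitals mark a C at the start with the C or T bases after it, where at least 4 follow without a break. HSPA8 and SNHG1 also start with a C, but fewer than 4 such bases follow it, so they are not marked.
ZFAS1, chr20:49278612-49278661, plus strand: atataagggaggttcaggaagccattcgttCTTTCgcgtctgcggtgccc
SNHG12, chr1:28581854-28581903, minus strand: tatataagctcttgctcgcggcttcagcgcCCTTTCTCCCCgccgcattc
SNHG32, chr6:31834886-31834935, plus strand: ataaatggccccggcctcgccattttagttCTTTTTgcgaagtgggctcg
RPL13A, chr19:49487578-49487627, plus strand: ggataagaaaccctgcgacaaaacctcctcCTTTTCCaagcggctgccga
RPS12, chr6:132814539-132814588, plus strand: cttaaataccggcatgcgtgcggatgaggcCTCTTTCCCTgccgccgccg
RPL7A, chr9:133348188-133348237, plus strand: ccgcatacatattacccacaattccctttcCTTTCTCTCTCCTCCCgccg
SNX5, chr20:17968775-17968824, minus strand: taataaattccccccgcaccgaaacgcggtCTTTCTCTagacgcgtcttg
HSPA8, chr11:123062117-123062166, minus strand: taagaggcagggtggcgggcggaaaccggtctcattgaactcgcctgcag
SNHG1, chr11:62855866-62855915, minus strand: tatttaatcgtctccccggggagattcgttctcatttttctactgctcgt
GAS5, chr1:173869026-173869075, minus strand: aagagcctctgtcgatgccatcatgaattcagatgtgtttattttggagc

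A C at the annotated start followed by at least 4 letters that were each C or T, read on the strand of the gene only, was present in 22 of 57 hosts (38.6%) and in 5.14% of the 27305 genes of the promoter table. Within 5 bases of the annotated start on either side it was present in 28 of 57 hosts (49.1%) and in 25.2% of all genes. At the start itself it was found in 8 of 11 ribosomal protein hosts and 5 of 9 GAS5, ZFAS1 and SNHG hosts. It was also found in 4 of 6 translation factor hosts, 2 of 7 nucleolar protein hosts and 3 of 24 other hosts. Of 21 tested hosts with the run 17 were higher and none was lower, and of 35 tested hosts with an entry but no run at the start 14 were higher and 12 lower. The snoRNA genes differed less by this split: 19 of 39 in hosts with the run were higher (median log2 fold change 0.42), and 30 of 80 in hosts without it (median 0.42). The 80 include 10 genes in GAS5, of which 5 were higher, and 8 in SNHG1, of which 7 were. They also include those in SNHG16, RPL3 and RPL4, which have such a run within 5 bases of the start. The snoRNA genes were not split by that wider rule. RPL7A, with no snoRNA called, and SNX5, whose SNORD17 was lower, have the run, whereas HSPA8, SNHG1 and GAS5, at the annotated start, do not. A match describes the letters at an annotated start, which may differ from the start used in these cells.

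Genes for the proteins that bind, build and use box C/D snoRNAs did not share the direction of the snoRNAs. Of 68 tested genes in 5 lists, 15 were higher and 20 were lower, against 22.3% and 21.8% of all genes, and the median log2 fold change was -0.01. Among the 4 core proteins, FBL, the methyltransferase fibrillarin, was higher (0.25 ± 0.04, adjusted p = 3.49e-07), as was NOP56 (0.26 ± 0.10, adjusted p = 0.0216). NOP56 lost its call without HCT116oxR library 1 (0.24), HCT116oxR library 3 (0.24) or parental library 3 (0.24). NOP58 (0.08 ± 0.11) and SNU13 (0.06 ± 0.05) did not pass the test. Of 10 assembly factors 3 were higher, namely HSP90AA1 (0.42 ± 0.02) and HSP90AB1 (0.36 ± 0.02), both HSP90 chaperone genes, and C12orf45 (0.51 ± 0.19). Another 3 were lower, with PIH1D1, a subunit of the R2TP chaperone complex, at -0.46 ± 0.06.

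Of 15 genes for snoRNA maturation, cap formation and transport, 3 (20%) were higher and 4 (26.7%) were lower. The shares of all genes tested were 22.3% and 21.8%. DBR1, the enzyme that opens intron lariats and so frees intronic snoRNAs, was at 0.31 ± 0.09 (adjusted p = 0.00239), and NCBP2, a cap-binding subunit, at 0.29 ± 0.04 (adjusted p = 1.58e-08), both higher. The list of U3 particle and small subunit processome proteins held 23 tested genes, of which 2 were higher and 11 were lower, with a median of -0.15. WDR75 was the lowest of them at -1.72 ± 0.04 and DCAF13 the highest at 0.77 ± 0.05. Changes of the genes around these protein genes were not taken, so a regional part in such values was not tested. Of 16 genes of the rRNA polymerase machinery and nucleolar factors 5 were higher and 2 lower (median 0.05), with NCL (nucleolin) at 0.36 and NPM1 (nucleophosmin) at 0.30, both higher.

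The higher snoRNA genes were not gathered in 1 part of the genome. Members of the group lay on 21 chromosomes, and those called higher on 14. For each snoRNA gene, the median log2 fold change of tested protein-coding genes within 5 Mb was taken as the level of its neighbourhood, and it ran from -0.41 to 0.24. Of the 54 higher genes, 49 had a neighbourhood within 0.1 of 0. SNORD1A, SNORD1B and SNORD1C lay in a neighbourhood at 0.24, and SNORD141A and SNORD21 in neighbourhoods under -0.1. Across the 152 genes Pearson's r between snoRNA and neighbourhood was 0.26. Only 9 snoRNA genes had a neighbourhood beyond 0.3 from 0, all of it lowered. Among these 9 was SNORD24 within RPL7A, at -0.34. The part of this neighbourhood in the values of the RPL7A snoRNA genes was not tested. The orphan snoRNAs of imprinted loci, which have no known rRNA target and are known for expression in brain, gave almost no counts: 120 of 124 entries were at 0 in all 6 libraries and the highest had 2 counts.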

How the data were processed

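Total RNA was measured in 3 parental HCT116 and 3 HCT116oxR libraries. The values deposited by the authors are raw counts per gene. Reads were aligned to GRCh38 with HISAT2 per the submitters' processing notes, and RNA with an integrity number above 8 was used per the labels' protocols. The sources used here do not name the counting tool, annotation or strand setting, or how reads with more than 1 match were counted, so near-identical copies and overlapping genes may share reads. The deposited counts of small RNA covered mature miRNAs. None of the snoRNA genes overlapped any of 4107 miRNA entries of the reference, so that table was not tested.

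The comparison used edgeR 4.0.16 under R 4.3.3 (filterByExpr with a minimum count of 10 and a minimum total of 15, TMM scaling, robust quasi-likelihood F test, 2-sided) over 17511 genes, with Benjamini-Hochberg adjusted p-values and a threshold of 0.05. A positive log2 fold change means a higher level in HCT116oxR cells. The SE was obtained by dividing the size of the log2 fold change by the square root of F. Levels are given as TMM-scaled CPM, mean and SD of 3 libraries; family and host sums are CPM of the library total. The procedure was tested on simulated data. The closest pair of libraries of a line had a chi-square of 2.25 per degree of freedom, so each was kept as 1 replicate. Low counts are limited by counting error, and PCR duplicates could not be removed.

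Genes and lists were chosen with earlier results of these data known. Genes named are the processing snoRNAs, the 12 highest and 12 lowest called members (only 2 were lower), the 5 with the most counts, those nearest the count limit, their hosts, the core proteins and up to 4 called genes of each protein list. Further members of the host clusters and of the U6 group were named after their values had been seen. A host is the shortest gene of the RefSeq table (GRCh38.p14) that spans the snoRNA; strand was not checked, and 10 snoRNA genes had more than 1 spanning gene. Alternatives were DESeq2 1.42.0, its size factors in edgeR, no low-count filter, a replicate block, leaving out each library, other count limits and omission of similar copies. The values of 1 host and its snoRNA genes are not reported here by name.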

Additional observations from a re-analysis of the deposited data

How the results depend on the processing

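The number of snoRNA genes called higher was 54 and ran from 46 to 52 on leaving out a single library; it was 47 with DESeq2, 53 with DESeq2 size factors in edgeR, 50 without the low-count filter, 54 at a count limit of 30 and 52 of 109 at a limit of 200. Without genes that share a number and differ by a letter or copy suffix it was 33 of 88, the fewer genes tested being part of that setting. The 2 lower genes became 1 with DESeq2, without the low-count filter, at a limit of 200 and without similar copies. On leaving out a library, 1 to 2 genes were lower. Without HCT116oxR library 1 or parental library 1, neither SNORD17 nor SNORD3B-2 kept its call, and 1 other gene was lower. Replicate numbers did not pair the cultures: deviations of same-numbered libraries from their line means correlated at 0.0413, -0.0965 and -0.0612 across 8926 genes. With a replicate block 53 snoRNA genes were higher and 2 lower, 37 hosts higher and 14 lower. Host counts ran from 34 to 38 higher and 12 to 14 lower, and protein gene counts from 12 to 15 higher and 17 to 22 lower, over all alternatives. Alternatives gave 420 values for 42 of the named genes. Of these values, 385 kept direction and side of the threshold and 26 kept direction and lost the call. Genes named only with their host cluster, such as SNORD33, and protein genes such as FBL were not among the 42. The other 9 changed sign; they belong to 4 genes near 0 that passed the test in none of these settings. On leaving out a library, SNORD3C ran from -0.16 to 0.25, SNORD3D from -0.32 to 0.047, SNORD118 from -0.48 to 0.27 and SNHG12 from -0.076 to 0.10. SNORD118 was at -0.013 with the replicate block. The causes were not tested.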
